A study of Mus musculus with 16 samples.

Results

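Sterol and fatty acid synthesis was followed through 28 genes in PDA30364 tumors, a pancreatic ductal adenocarcinoma of the mouse. The genes were taken by their place in the pathways, with earlier results of these data known. They comprised 17 enzymes that build cholesterol, 4 regulators of the SREBP system, 6 enzymes that build fatty acids and the sterol carrier Stard4. All 28 were measured, by 64 probe sets that are annotated to one of them alone, among 18193 genes with such a probe set. Where several probe sets read a gene, which held for 19 of the 28, the brightest on average over the 16 arrays stands for it.

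RNA of whole tumor pieces from tumor-bearing mice was hybridized to 16 Affymetrix arrays, with 4 arrays in each of 4 groups. Control mice received vehicle and control IgG, the anti-CD40 Ab group received vehicle and CD40 mIgG1, the GEM group received GEM and control IgG, and the GEM/anti-CD40 Ab group received both agents. GEM (gemcitabine, a nucleoside analog) was dosed at 120 mg/kg on days 1, 5 and 12 of treatment. Antibody or control IgG was given on days 3, 4, 6 and 14 of treatment. The tumors were taken on day 22 or 23 after inoculation. Dosing and harvest days thus have different origins, as the paper states that mice were in general first dosed 1 week after implantation. All tumors grew from 1 cell line, injected with Matrigel into the flank of C57BL/6-Ly5.1 mice aged 6 to 12 weeks, so that the spread between samples is that of grafts of one tumor. The anti-CD40 Ab is an agonist that activates antigen-presenting cells. The comparison asked whether the transcripts of lipid synthesis differed between tumors of mice given vehicle and control IgG, a single agent or both agents.

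Cholesterol is built from acetyl-CoA through mevalonate, isoprenoid units and squalene, and the first sterol is then trimmed and reduced step by step. Fatty acids are built from the same acetyl-CoA, then lengthened and desaturated. Both routes are switched on by the SREBP transcription factors, which sit in the membrane of the endoplasmic reticulum as precursors. SCAP carries the precursors to the Golgi for cleavage when sterol is scarce, and INSIG proteins hold them back when it is plentiful. SREBPs bind sterol response elements in promoters, usually beside sites for NF-Y and Sp1. Dividing tumor cells draw on both pathways for membranes.

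Promoters of 22 of the 28 genes were matched in the RefSeq table of build GRCm38.p6, as 28 windows from 250 bases before to 50 bases after a start. The other genes were Fdps, Fdft1, Sqle, Scd1, Scd2 and Stard4. A single written form of the sterol response element, TCACNCCAC, was searched for on either strand. It was found in the promoter of 1 of the 22 genes, Hmgcs1, and in 1.44% of the 27025 genes of the table. Other forms of the element were not searched for, so their absence is not shown. CCAAT, the core of an NF-Y site, was found for 19 of 22 genes against 41.1% of all genes, and GGGCGG, an Sp1 box, for 18 against 38.2%. The E-box CACGTG was found for 5 genes, Dhcr7, Hsd17b7, Insig1, Sc5d and Scap, against 8.09% of all genes. Elovl6 and Acaca held none of the 4 motifs. These matches describe letters in a window and are not measured binding.

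Of the matched genes, Hmgcs1 alone held TCACNCCAC. Mvk and Cyp51 are sterol enzymes whose GEM/anti-CD40 Ab arrays all lay below all control arrays, as held for 3% of all genes. The margin was narrow, with 7.51 against 7.52 on the log2 scale for Mvk and 10.15 against 10.16 for Cyp51 at the nearest. Elovl6 is a fatty acid enzyme without any of the motifs. The promoters of Hmgcs1, Mvk, Cyp51 and Elovl6 are given below. They lie at chr13:119690101-119690400 (plus strand), chr5:114444019-114444318 (plus strand), chr5:4104648-4104947 (minus strand) and chr3:129532136-129532435 (plus strand). Each is written 5′ to 3′ along its gene, and capitals mark TCACNCCAC and CCAAT. The latter reads ATTGG where it lies on the other strand.
Hmgcs1: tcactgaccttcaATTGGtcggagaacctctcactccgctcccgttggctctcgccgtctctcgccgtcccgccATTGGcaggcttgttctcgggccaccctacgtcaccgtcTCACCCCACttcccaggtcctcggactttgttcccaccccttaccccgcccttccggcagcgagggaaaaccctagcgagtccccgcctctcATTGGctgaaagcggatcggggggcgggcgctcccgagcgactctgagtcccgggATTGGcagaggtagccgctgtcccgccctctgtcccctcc
Mvk: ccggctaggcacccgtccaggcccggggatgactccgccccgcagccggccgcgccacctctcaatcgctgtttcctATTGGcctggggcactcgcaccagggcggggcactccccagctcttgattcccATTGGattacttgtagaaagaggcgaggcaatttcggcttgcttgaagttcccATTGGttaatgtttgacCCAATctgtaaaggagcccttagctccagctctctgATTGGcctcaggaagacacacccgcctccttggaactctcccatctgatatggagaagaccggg
Cyp51: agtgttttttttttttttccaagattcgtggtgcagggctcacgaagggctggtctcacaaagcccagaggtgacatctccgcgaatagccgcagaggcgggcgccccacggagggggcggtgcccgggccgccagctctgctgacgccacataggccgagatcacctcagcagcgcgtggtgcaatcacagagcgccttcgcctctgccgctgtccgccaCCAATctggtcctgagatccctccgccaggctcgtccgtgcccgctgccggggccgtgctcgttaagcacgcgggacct
Elovl6: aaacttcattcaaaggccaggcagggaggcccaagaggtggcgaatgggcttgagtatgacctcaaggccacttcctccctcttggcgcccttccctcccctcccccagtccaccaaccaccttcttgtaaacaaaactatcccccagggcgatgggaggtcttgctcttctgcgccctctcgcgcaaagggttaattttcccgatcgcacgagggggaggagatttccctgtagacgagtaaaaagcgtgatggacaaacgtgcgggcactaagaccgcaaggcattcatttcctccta

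The Hmgcs1 promoter held TCACNCCAC 137 bases before the start and CCAAT at 4 places. The Mvk promoter held CCAAT at 5 places, 173, 120, 67, 50 and 14 bases before the start. In the Cyp51 promoter it stood once, 29 bases before the start.

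**Figure D1:**
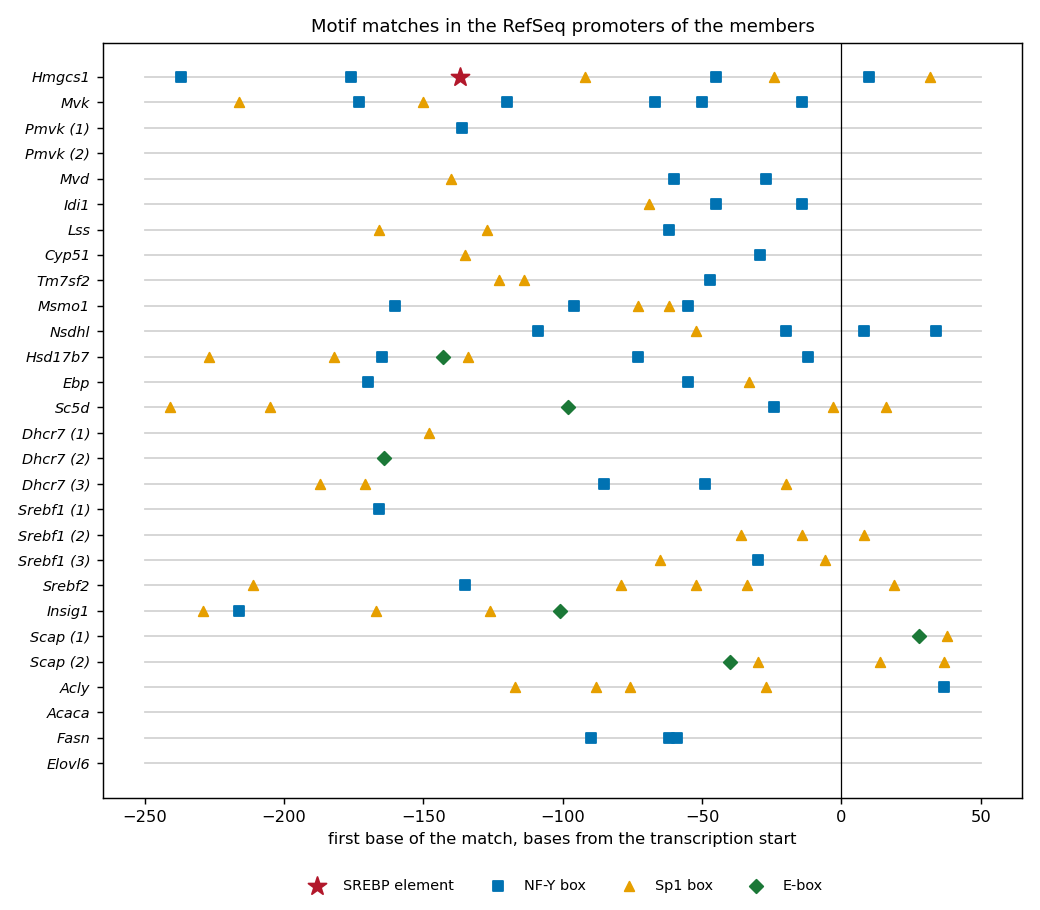
Positions of the 4 motifs in the 28 RefSeq promoter windows of the 22 matched genes, in bases from the transcription start, with 1 line per window and numbers in brackets for genes with several starts. Most CCAAT boxes of the sterol enzymes lie before the start, as does most of each window. The lines of Acaca, Elovl6 and the second Pmvk window are empty.

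Values are deposited as log2 intensities, 1 per probe set, so that a difference of 1 is a doubling and levels of different genes cannot be compared. Replicate arrays correlated at 0.987 to 0.997. The labels of GEM replicates 3 and 4 name a single animal number, so that the GEM group may hold 3 animals, and both arrays were kept and counted in n. With their mean as 1 sample, the differences from the combination were -0.40 for Stard4 and -0.40 for Elovl6, and 3 of the 28 genes were lower than GEM at limma's unadjusted p under 0.05, where separate arrays gave 4. The keratins Krt8 and Krt18, which mark epithelium, were read by probe sets at the 99.8 and 99.7 percentile of brightness. Control replicate 2 and anti-CD40 Ab replicate 2 carried skin keratinocyte transcripts, with a mean of the 10 markers of 8.37 and 6.24 against 4.40 to 5.06 on the other 14 arrays. GEM/anti-CD40 Ab replicate 4 carried the most skeletal muscle, with a mean of the 10 markers of 12.48 against 4.59 to 8.08. The other arrays differed in it as well, with 8.08 on GEM replicate 4 and 7.59 on control replicate 4. With anti-CD40 Ab, 7 of the 10 markers were lower than control at limma's unadjusted p under 0.05, where 3.74% of all genes were. Where the 3 arrays with skin or muscle named here are left out below, these other differences in muscle markers stay. In whole tumor RNA, fewer cells of a type and less RNA per cell cannot be told apart.

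The probe sets of the 28 genes were above the dim end of the array, from the 68.9 percentile of brightness for Mvk to the 99.4 percentile for Scd2. Brightness depends on the probe as well as the RNA, and this gives no order of transcript levels. Each pair of groups was tested on its 8 arrays with the moderated test of limma and adjustment by Benjamini-Hochberg over all 45037 probe sets, and a call is an adjusted p under 0.05. None of the 28 genes was called in any comparison. The share of all probe sets called was 0% for anti-CD40 Ab against control, 0% for GEM against control, 0.0178% for GEM/anti-CD40 Ab against control, 0% for GEM/anti-CD40 Ab against GEM, 0% for GEM/anti-CD40 Ab against anti-CD40 Ab and 0.191% for GEM against anti-CD40 Ab. It was 0% for the interaction of the agents and 0.0355% for any difference among the 4 groups.

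At an unadjusted p under 0.05, GEM/anti-CD40 Ab tumors were lower than control in 10 of the 28 genes and higher in 0, where 5.35% of all genes were lower and 5.86% higher. The 10 were the mevalonate enzymes Mvk, Pmvk and Idi1, the later sterol enzymes Sqle, Cyp51, Nsdhl and Ebp, the fatty acid enzymes Scd1 and Elovl6, and Stard4. The estimates of these 10 genes ran from -0.18 for Sqle to -0.58 for Scd1. Of all 28 genes, 25 had an estimate below 0 in this comparison, against 54.8% of all genes. The 28 genes were chosen with earlier results of these data known, so these shares describe the list and do not test it. The count of 10 rested in part on single arrays. Without the 3 arrays with most skin or muscle transcripts it was 2, and without control replicate 3 it was 3. It was 4 without GEM/anti-CD40 Ab replicate 3 and 4 without replicate 4, 5 without control replicate 4, and 6 without GEM/anti-CD40 Ab replicate 1.

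The single agents gave fewer such genes. With anti-CD40 Ab alone, 3 genes were lower than control at an unadjusted p under 0.05, Mvk, Ebp and Scd1, and 0 were higher, where 3.74% of all genes were lower and 3.52% higher. This count was 0 without anti-CD40 Ab replicate 1, 1 without anti-CD40 Ab replicate 3 or control replicate 4, 1 lower and 1 higher without control replicate 2, and 6 without anti-CD40 Ab replicate 4. With GEM alone, Mvk was the only such gene, lower than control, where 2.97% of all genes were lower and 3.34% higher. The GEM count was 0 without control replicate 2 or 4, 2 without GEM replicate 4, and 2 lower and 1 higher without GEM replicate 3. GEM/anti-CD40 Ab against GEM gave 4 lower genes, Idi1, Fasn, Elovl6 and Stard4, and 0 higher, where 6.1% of all genes were lower and 6.67% higher. It was 2 without GEM replicate 1, GEM replicate 4 or GEM/anti-CD40 Ab replicate 1, and 7 where the probe sets of a gene were averaged. GEM/anti-CD40 Ab against anti-CD40 Ab gave 0 genes, where 1.41% of all genes were lower and 2.19% higher, and 3 lower genes without anti-CD40 Ab replicate 1. GEM against anti-CD40 Ab gave 1 higher gene, Stard4, where 4.22% of all genes were higher and 4.41% lower, and 4 without anti-CD40 Ab replicate 4. The comparisons against control share the control arrays.

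Over all 64 probe sets of the 28 genes, 22 were lower than control with GEM/anti-CD40 Ab at an unadjusted p under 0.05 and 0 were higher, where 5.23% of all probe sets were lower and 4.34% higher. These belonged to 15 genes. Against GEM alone, 12 probe sets of 8 genes were lower and 0 higher, where 6.49% of all probe sets were lower and 5.08% higher. Probe sets of one gene read the same RNA and are not further replicates.

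**Figure D2:**
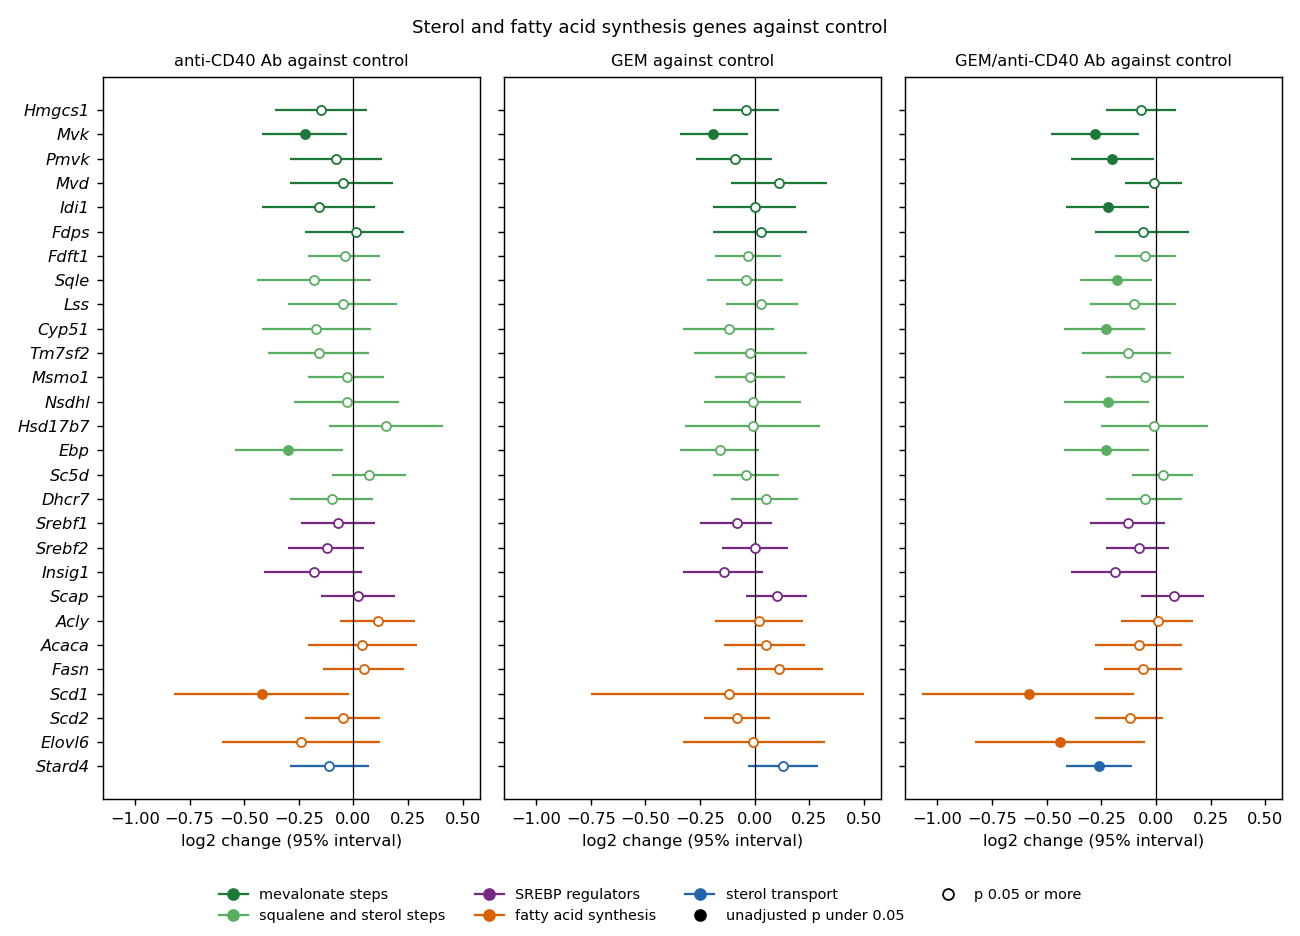
Log2 change of each of the 28 genes against control in the 3 treated groups (n = 4 arrays per group, 1 panel each), with limma's 95% interval and filled points at an unadjusted p under 0.05. With GEM/anti-CD40 Ab 10 points are filled, all to the left of 0, against 3 in the anti-CD40 Ab panel and 1 in the GEM panel, and the widest intervals are those of Scd1.

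Stard4, a cytosolic carrier that moves cholesterol between membranes and is a target of SREBPs, had the smallest p of the 28 genes in the test across the 4 groups. Its log2 values were 9.44, 9.59, 9.61 and 9.64 on the control arrays and 9.28, 9.52, 9.55 and 9.49 with anti-CD40 Ab. With GEM they were 9.74, 9.71, 9.58 and 9.77, and with GEM/anti-CD40 Ab 9.24, 9.39, 9.29 and 9.31. All 4 arrays of the combination lay below all control arrays and below all GEM arrays, and all GEM arrays lay above all anti-CD40 Ab arrays. The mean was 9.57 ± 0.09 in control tumors, 9.46 ± 0.12 after the antibody, 9.70 ± 0.08 after GEM and 9.31 ± 0.06 after both (SD, n = 4).

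The Stard4 difference between GEM/anti-CD40 Ab and GEM was -0.39 on the log2 scale (95% interval -0.54 to -0.25, limma's unadjusted p = 0.000163, adjusted p = 0.197). Against control it was -0.26 (95% interval -0.41 to -0.11, limma's unadjusted p = 0.00344, adjusted p = 0.407). GEM alone differed from control by 0.13 (95% interval -0.03 to 0.29), so that Stard4 lay at its highest mean with GEM and at its lowest with both agents. The interaction, the change with GEM in the presence of anti-CD40 Ab minus that in its absence, was -0.28 (SE 0.10, limma's unadjusted p = 0.0121, adjusted p = 0.89). Stard4 was the only one of the 28 genes with an interaction at an unadjusted p under 0.05, where 5.12% of all genes had one. Across the 4 groups its F was 11.29 (limma's unadjusted p = 0.000379, adjusted p = 0.152). Mvk and Elovl6 were the other genes with an unadjusted p under 0.05 in that test, which 11% of all genes had.

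Stard4 has 2 other probe sets, and both pointed the same way. Against GEM they gave -0.44 and -0.34 for the combination, and against control -0.24 and -0.14. No alternative processing moved its unadjusted p against GEM above 0.00127 or its unadjusted p against control above 0.0215, and none gave an adjusted p under 0.05.

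**Figure D3:**
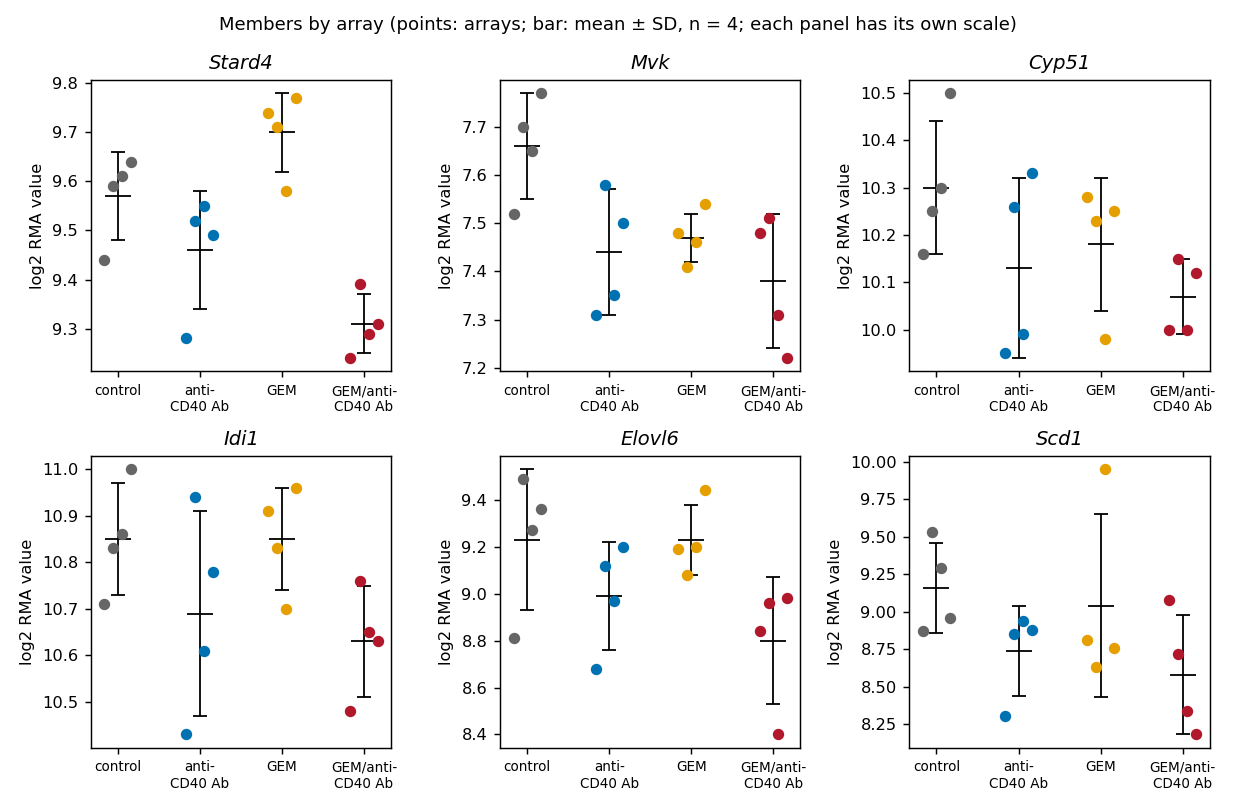
Log2 values of Stard4, Mvk, Cyp51, Idi1, Elovl6 and Scd1 on each of the 16 arrays, with the mean and SD of each group (n = 4) and a separate axis range per gene. The combination's Stard4 points lie at 9.24 to 9.39, below the lowest control point at 9.44 and the lowest GEM point at 9.58, while the Scd1 points of the groups overlap and GEM replicate 3 stands at 9.95.

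The mevalonate enzymes carry acetyl units to farnesyl diphosphate. Hmgcs1 makes HMG-CoA, Mvk and Pmvk phosphorylate mevalonate, Mvd decarboxylates it, Idi1 isomerizes the isoprenoid unit and Fdps joins the units. Mvk was the only gene below control in each treated group at an unadjusted p under 0.05. Its log2 values were 7.52, 7.70, 7.65 and 7.77 on the control arrays and 7.31, 7.58, 7.35 and 7.50 with anti-CD40 Ab. With GEM they were 7.48, 7.41, 7.46 and 7.54, and with GEM/anti-CD40 Ab 7.48, 7.51, 7.31 and 7.22. All combination arrays lay below the control arrays, by 0.01 at the nearest, while the arrays of each single agent overlapped control. The estimate for the combination was -0.28 (SE 0.09, limma's unadjusted p = 0.0106, adjusted p = 0.454), and those for anti-CD40 Ab and GEM were -0.22 (SE 0.09) and -0.19 (SE 0.07). The second Mvk probe set gave -0.08 for the combination, and the mean of both Mvk probe sets brought the GEM estimate from -0.19 to -0.08.

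Idi1 had values of 10.71, 10.83, 10.86 and 11.00 in control tumors and 10.43, 10.94, 10.61 and 10.78 with anti-CD40 Ab. GEM arrays read 10.91, 10.83, 10.70 and 10.96, and GEM/anti-CD40 Ab arrays 10.48, 10.76, 10.65 and 10.63. The combination overlapped both control and GEM through its highest array. Its estimate was -0.22 against control (SE 0.08, limma's unadjusted p = 0.0282, adjusted p = 0.488) and -0.22 against GEM, where limma's unadjusted p was 0.0238.

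Hmgcs1, the enzyme at the head of the list, did not follow Mvk and Idi1 on its brightest probe set. Its values were 11.79, 11.69, 11.67 and 11.78 in control tumors and 11.45, 11.79, 11.42 and 11.68 with anti-CD40 Ab. With GEM they were 11.74, 11.80, 11.56 and 11.67, and with GEM/anti-CD40 Ab 11.51, 11.76, 11.70 and 11.69. All 4 groups overlapped, and the estimate for the combination against control was -0.07 (95% interval -0.23 to 0.09). The other 4 Hmgcs1 probe sets gave -0.33 to -0.15 for it, and the probe sets of this gene therefore differ in size. Pmvk had an estimate of -0.20 for the combination, with limma's unadjusted p at 0.0405. Mvd and Fdps had estimates of -0.01 and -0.06.

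Among the enzymes from squalene onward, Fdft1 makes squalene, Sqle epoxidizes it, Lss closes the rings, and Cyp51 removes the first methyl group. Tm7sf2, Msmo1, Nsdhl, Hsd17b7, Ebp, Sc5d and Dhcr7 carry out the later steps. Cyp51 read 10.16, 10.25, 10.30 and 10.50 on the control arrays and 9.95, 10.26, 9.99 and 10.33 with anti-CD40 Ab. With GEM it read 10.28, 10.23, 9.98 and 10.25, and with GEM/anti-CD40 Ab 10.00, 10.15, 10.00 and 10.12. The combination arrays lay below all control arrays, again by 0.01 at the nearest, and the single agents overlapped control. The estimate was -0.23 (SE 0.08, limma's unadjusted p = 0.0205, adjusted p = 0.473), and another Cyp51 probe set gave -0.24.

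Mvk, Cyp51 and Stard4 were thus the 3 genes of 28 whose combination arrays all lay below control, a separation seen for 3% of all genes. Against GEM, Elovl6 and Stard4 separated in this way, where 3.46% of all genes did. Scap was the only one of the 28 with all GEM arrays above control, against 1.83% of all genes, and Scap and Stard4 had all GEM arrays above anti-CD40 Ab, against 2.42% of all genes.

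Sqle, often the slow step after squalene, read 10.80, 10.88, 11.01 and 10.93 in control tumors and 10.49, 10.83, 10.58 and 11.01 with anti-CD40 Ab. GEM arrays read 10.97, 10.76, 10.75 and 10.96, and GEM/anti-CD40 Ab arrays 10.71, 10.85, 10.62 and 10.70. The highest combination array lay inside the control range, and the estimate was -0.18 with limma's unadjusted p at 0.0316. Ebp, an isomerase of late sterols, was the sterol enzyme furthest below control with anti-CD40 Ab, at -0.30 (SE 0.11, limma's unadjusted p = 0.0226, adjusted p = 0.807). Its values were 10.97, 10.89, 11.00 and 11.12 in control tumors and 10.64, 10.94, 10.43 and 10.78 with anti-CD40 Ab. GEM arrays read 10.86, 10.66, 10.84 and 10.98, and combination arrays 10.84, 10.93, 10.66 and 10.65. Each treated group overlapped control in 1 or more arrays, and the estimate for the combination was -0.23.

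Nsdhl, which acts in removing methyl groups, read 9.58, 9.36, 9.40 and 9.28 in control tumors and 9.14, 9.59, 9.40 and 9.37 in the anti-CD40 Ab group. The GEM arrays gave 9.63, 9.29, 9.26 and 9.41, and the arrays of both agents 9.22, 9.32, 9.14 and 9.04. The combination had a mean of 9.18 ± 0.12 against 9.40 ± 0.13 for control (SD, n = 4), with limma's unadjusted p at 0.0294, while the estimates for anti-CD40 Ab and GEM were -0.03 and -0.01. Hsd17b7 had the smallest p of the 28 genes between the combination and anti-CD40 Ab, without passing 0.05. It read 8.04, 8.48, 8.21 and 8.00 in control tumors and 8.18, 8.40, 8.45 and 8.30 in the anti-CD40 Ab group. The GEM arrays gave 8.48, 7.93, 8.05 and 8.23, and the arrays of both agents 8.22, 8.17, 8.25 and 8.06. Its arrays overlapped between the combination and anti-CD40 Ab. The estimates of Fdft1, Lss, Tm7sf2, Msmo1, Sc5d and Dhcr7 for the combination against control lay between -0.13 and 0.03, each with an interval that includes 0. On the brightest probe set of each gene, Sc5d was the only sterol enzyme with a combination estimate above 0 against control.

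Over the 17 sterol enzymes the median estimate was -0.10 for GEM/anti-CD40 Ab, -0.08 for anti-CD40 Ab and -0.02 for GEM, each against control, beside medians of -0.01, -0.02 and -0.00 over all genes. Estimates below 0 were found for 16, 14 and 12 of the 17. The GEM/anti-CD40 Ab count was 13 where the probe sets of a gene were averaged. It was 14 without control replicate 3 and 17 without GEM/anti-CD40 Ab replicate 3. The anti-CD40 Ab and GEM counts also depended on single tumors. Without anti-CD40 Ab replicate 1 the count for anti-CD40 Ab was 9, and without GEM replicate 3 the count for GEM was 5. The anti-CD40 Ab median ran from -0.14 to -0.02 when 1 array was left out, with -0.02 without anti-CD40 Ab replicate 1 and -0.14 without anti-CD40 Ab replicate 2. It was -0.16 without the 3 arrays with skin or muscle.

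On their representing probe sets, none of the 4 SREBP regulators had an unadjusted p under 0.05 in any of the 6 pairs. Srebf1 and Srebf2 encode the factors themselves. Srebf1 read 10.79, 10.58, 10.69 and 10.60 in control tumors and 10.59, 10.72, 10.49 and 10.58 in the anti-CD40 Ab group. The GEM arrays gave 10.59, 10.70, 10.58 and 10.46, and the arrays of both agents 10.53, 10.62, 10.59 and 10.40. Srebf2 read 9.73, 9.58, 9.69 and 9.75 in control tumors and 9.54, 9.54, 9.44 and 9.73 in the anti-CD40 Ab group. The GEM arrays gave 9.70, 9.80, 9.67 and 9.58, and the arrays of both agents 9.61, 9.52, 9.65 and 9.64. The groups overlapped for both genes. The estimates for the combination against control were -0.13 (95% interval -0.30 to 0.04) and -0.08 (95% interval -0.23 to 0.06), and a second Srebf2 probe set gave -0.24 with limma's unadjusted p at 0.00361.

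Insig1, which retains the SREBP precursors and is itself a target of SREBPs, read 9.66, 9.45, 9.52 and 9.57 in control tumors and 9.19, 9.50, 9.22 and 9.56 with anti-CD40 Ab. GEM arrays read 9.37, 9.59, 9.25 and 9.42, and GEM/anti-CD40 Ab arrays 9.18, 9.35, 9.54 and 9.36. Most treated arrays lay below the control arrays, with an overlap in each group, and the estimate for the combination was -0.19 with limma's unadjusted p at 0.0523. Scap, the escort of the precursors, read 9.43, 9.34, 9.42 and 9.24 in control tumors and 9.41, 9.43, 9.22 and 9.44 with anti-CD40 Ab. GEM arrays read 9.45, 9.48, 9.45 and 9.45, and GEM/anti-CD40 Ab arrays 9.38, 9.41, 9.48 and 9.46. The GEM arrays were the most alike of the 4 groups and lay above control, by an estimate of 0.10 (95% interval -0.04 to 0.24).

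In the fatty acid pathway, Acly supplies cytosolic acetyl-CoA, Acaca makes malonyl-CoA, Fasn builds the chain, Elovl6 lengthens it, and Scd1 and Scd2 place a double bond. For the combination against control, Scd1 and Elovl6 had the largest estimates of the 28 genes. Scd1 read 8.87, 9.53, 9.29 and 8.96 on the control arrays and 8.30, 8.85, 8.94 and 8.88 with anti-CD40 Ab. With GEM it read 8.81, 8.63, 9.95 and 8.76, and with GEM/anti-CD40 Ab 9.08, 8.72, 8.34 and 8.18. Every group overlapped every other, and GEM replicate 3 was the highest of the 16 arrays. The estimate was -0.58 for the combination against control (SE 0.21, limma's unadjusted p = 0.0236, adjusted p = 0.48) and -0.42 for anti-CD40 Ab (SE 0.18, limma's unadjusted p = 0.0429, adjusted p = 0.807).

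Scd1 is abundant in fat cells and in sebaceous glands, so their markers were read beside it. The mean of 8 measured adipocyte markers of 10 was 7.28 on GEM replicate 3 and 7.26 on GEM/anti-CD40 Ab replicate 4, against 5.49 to 6.52 on the other arrays. Scd1 was highest of all arrays on the first of these and lowest on the second. The mean of 6 measured sebaceous gland markers of 10 was 6.12 on control replicate 2, where Scd1 was at 9.53, 5.29 on anti-CD40 Ab replicate 2, and 4.69 to 5.08 on the others. Without the 3 arrays with most skin or muscle transcripts the Scd1 estimate for the combination was -0.33, with limma's unadjusted p at 0.139. Without anti-CD40 Ab replicate 1 that for anti-CD40 Ab was -0.27. The part of fat and skin in the Scd1 values was not tested beyond this.

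Elovl6 read 8.81, 9.49, 9.27 and 9.36 on the control arrays and 8.68, 9.12, 8.97 and 9.20 with anti-CD40 Ab. With GEM it read 9.19, 9.08, 9.20 and 9.44, and with GEM/anti-CD40 Ab 8.84, 8.96, 8.40 and 8.98. The combination arrays all lay below the GEM arrays, and control replicate 1 lay among the combination arrays. The estimate was -0.43 against GEM (SE 0.13, limma's unadjusted p = 0.0105, adjusted p = 0.291) and -0.44 against control (SE 0.17, limma's unadjusted p = 0.0319, adjusted p = 0.497). Without the 3 arrays with skin or muscle these were -0.49 and -0.41.

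Fasn, the central enzyme of the pathway, read 9.92, 10.11, 9.88 and 10.16 in control tumors and 10.01, 10.02, 10.16 and 10.07 with anti-CD40 Ab. GEM arrays read 10.12, 9.98, 10.17 and 10.25, and GEM/anti-CD40 Ab arrays 9.86, 9.99, 9.98 and 10.01. The GEM and combination arrays overlapped, with an estimate of -0.17 between them (SE 0.07, limma's unadjusted p = 0.042, adjusted p = 0.416). Against control the combination was at -0.06 (95% interval -0.24 to 0.12). Acly, Acaca and Scd2 had estimates of 0.01, -0.08 and -0.12 for the combination against control, none at an unadjusted p under 0.05. The 2 dimmer Scd2 probe sets gave -0.19 and -0.35. The 6 fatty acid enzymes had a median of -0.10 for GEM/anti-CD40 Ab, -0.00 for anti-CD40 Ab and 0.01 for GEM against control. Against GEM, the combination's median was -0.15 with 6 of 6 estimates below 0, and that of the sterol enzymes was -0.10 with 15 of 17 below 0, beside -0.02 over all genes.

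To set sterol against fatty acid synthesis, each gene was centred on its mean over the 16 arrays and averaged per array within its pathway. The sterol level was 0.01, 0.04, 0.10 and 0.10 on the control arrays and -0.20, 0.13, -0.10 and 0.06 with anti-CD40 Ab. GEM arrays stood at 0.12, -0.02, -0.09 and 0.10, and GEM/anti-CD40 Ab arrays at -0.09, 0.02, -0.07 and -0.11. The control arrays stood above 0, 3 of the 4 combination arrays below, and the single agents spread over both sides. The fatty acid level was -0.07, 0.18, 0.05 and 0.13 in control tumors and -0.21, 0.04, 0.08 and 0.05 with anti-CD40 Ab. GEM arrays stood at 0.01, -0.06, 0.20 and 0.12, and combination arrays at -0.06, -0.06, -0.25 and -0.18. All 4 combination arrays were below 0, and control replicate 1 lay among them. Without Scd1 the combination's fatty acid level was still below 0 on each array, from -0.19 to -0.04.

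The sterol level minus the fatty acid level averaged -0.01 ± 0.10 in the control group (SD, n = 4). Its mean was -0.02 ± 0.12 for anti-CD40 Ab alone, -0.04 ± 0.18 for GEM alone and 0.08 ± 0.08 for both. The groups overlapped, and no shift of one pathway against the other stood out from the spread between tumors. Counted by gene, 15, 12, 13 and 15 of the 17 sterol enzymes were below their control mean on the 4 combination arrays, and 5 of the 6 fatty acid enzymes on each of them. On the control arrays themselves the sterol counts were 13, 12, 5 and 4 and the fatty acid counts 5, 2, 3 and 2, so that control replicates 1 and 2 reached the sterol counts of combination replicates 2 and 3. With anti-CD40 Ab the sterol counts were 17, 5, 15 and 7, and with GEM 4, 13, 16 and 6. Each single-agent group thus held both tumors with most sterol enzymes below the control mean and tumors with few.

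**Figure D4:**
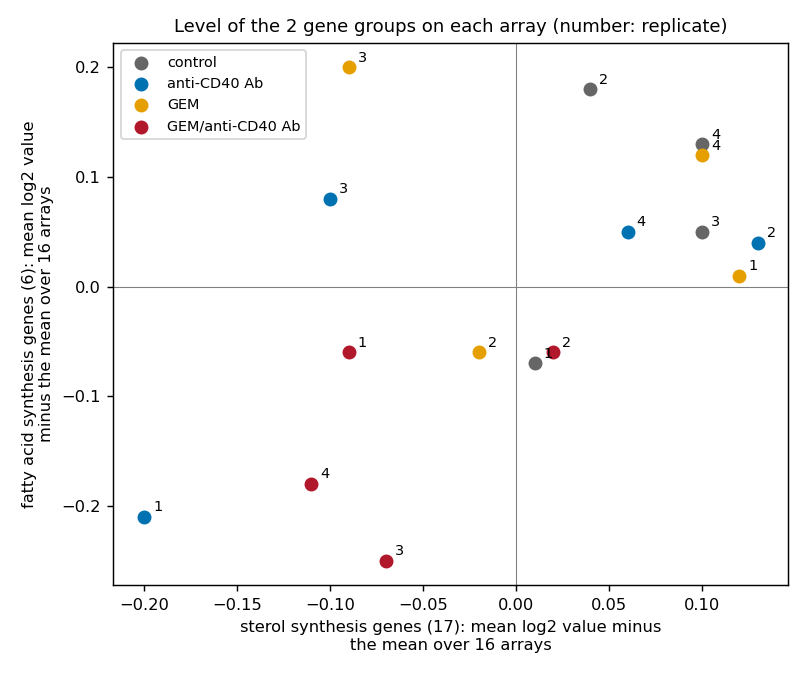
Level of the 17 sterol synthesis genes (horizontal) and the 6 fatty acid synthesis genes (vertical) on each of the 16 arrays, as mean log2 value minus the mean over all arrays, with the replicate number beside each point. The combination points lie at or below -0.06 on the vertical axis, and anti-CD40 Ab replicates 1 and 2 mark both ends of the horizontal axis at -0.20 and 0.13.

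Markers of other cells also differed between control and GEM/anti-CD40 Ab tumors. The mean of 6 measured granulocyte markers of 8 ran from 7.11 to 8.06 in control tumors and from 8.13 to 9.0 with the combination, with no overlap. For the 10 macrophage markers, all measured, the ranges were 8.95 to 9.55 and 9.38 to 10.37. For the 8 epithelial markers, all measured, they were 11.95 to 12.33 and 12.11 to 12.51, with an overlap. For the 8 endothelial markers, all measured, they were 6.19 to 6.63 and 6.61 to 7.41, with a median estimate of 0.47 and 4 of 8 higher at limma's unadjusted p under 0.05. The part of other cell types in the lower values was not tested. Within groups, the sterol level had a correlation of 0.06 with the epithelial markers, -0.09 with the macrophage markers and 0.36 with the granulocyte markers over the 16 arrays, as deviations from group means. It was -0.49 with the endothelial markers, the furthest from 0 of the 8 marker lists set against it, and -0.30 with the fibroblast markers.

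Sterol enzymes varied together from tumor to tumor within the treatment groups. As a description over the 16 arrays, the deviations from group means had a median Pearson correlation of 0.52 over the 136 pairs of sterol enzymes, with 134 above 0. It was 0.17 over the 15 pairs of fatty acid enzymes and 0.19 over the 102 pairs of one sterol and one fatty acid enzyme, beside 0.01 over all pairs of genes. By Spearman's rho the medians were 0.49, 0.35 and 0.18, so that the gap between the medians of the pathways was smaller by rank. The means over pairs changed little, from 0.50, 0.14 and 0.19 by Pearson to 0.48, 0.16 and 0.16 by Spearman. The arrays share their RNA preparation and normalization across genes, and genes are not independent replicates. Anti-CD40 Ab replicates 1 and 2, whose sterol level deviated from their group by -0.17 and 0.16, carried part of the relation. Without them the medians were 0.39, 0.06 and 0.10.

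The closest pairs were Idi1 and Cyp51 (r = 0.86), Hmgcs1 and Insig1 (0.85) and Mvd and Sqle (0.85). Fdps and Lss each had a median correlation of 0.67 with the sterol enzymes, and Hsd17b7, at 0.22, the lowest of the 17. Of the genes outside the sterol route, Stard4 was the closest to it, with a median of 0.59, followed by Scd2 at 0.46, Elovl6 at 0.40 and Insig1 at 0.38. Srebf1, Srebf2 and Scap stood at 0.10, 0.08 and 0.10. Scd1 stood at -0.09, the only one of the 28 below 0. Srebf1 went with Scd2 (r = 0.82) and against Fasn (-0.71) and Acly (-0.68), so that the fatty acid enzymes did not form one block.

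**Figure D5:**
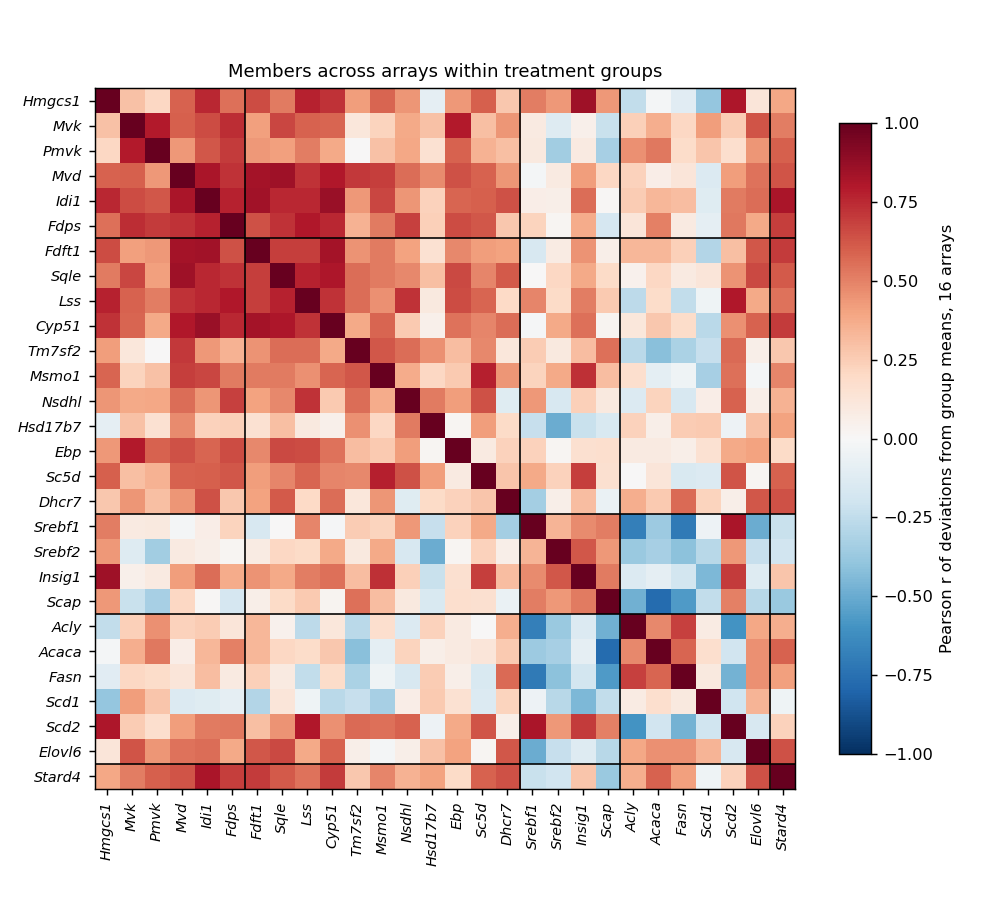
Pearson correlation of the deviations from group means over the 16 arrays for every pair of the 28 genes, with lines between the mevalonate enzymes, the later sterol enzymes, the SREBP regulators, the fatty acid enzymes and Stard4. The sterol enzymes form a block mostly above 0 (median 0.52), Scd2 and Stard4 share it, and Srebf1 runs against Acly and Fasn.

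Further genes of these pathways were read from 3 lists. Of 9 other sterol pathway genes measured of 12, none was at an unadjusted p under 0.05 with GEM/anti-CD40 Ab, while Mbtps2, a protease that releases SREBPs, was at 0.19 with anti-CD40 Ab (limma's unadjusted p = 0.0443) and Rnf139, a ubiquitin ligase, at -0.14 with GEM (limma's unadjusted p = 0.0359). Of 19 other genes of fatty acid and glyceride synthesis measured of 20, only Acsl3, which activates fatty acids, was at such a p, at -0.21 with the combination (limma's unadjusted p = 0.0244, adjusted p = 0.481). Their medians against control with the combination were 0.03 and -0.06.

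Among the genes of sterol export and the sterol sensor LXR, 11 of 12 were measured. With GEM/anti-CD40 Ab 3 of the 11 were higher than control at an unadjusted p under 0.05 and 0 lower, where 5.86% of all genes were higher and 5.35% lower. The median was 0.17, with 7 estimates above 0 and 4 below. The 10 macrophage markers had a median of 0.46 in the same comparison, with 10 of 10 above 0 and 3 at such a p, and their part in these values was not tested. With anti-CD40 Ab 2 were higher and 1 lower, and with GEM 0. Ch25h, which makes 25-hydroxycholesterol and is induced by interferons in macrophages, was at 1.20 with the combination (SE 0.37, limma's unadjusted p = 0.0109, adjusted p = 0.454) and at 0.61 with anti-CD40 Ab. Cyp7b1, which breaks down oxysterols, was at 0.71 with anti-CD40 Ab and Cyp27a1, which makes another oxysterol, at -0.30, with limma's unadjusted p at 0.00873 and 0.00651. Abca1, the cholesterol exporter, named after its values were seen, was at 0.56 with the combination. None of these passed adjustment.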

How the data were processed

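Per the labels, RNA was extracted from snap-frozen tumor pieces and hybridized to Affymetrix mouse genome arrays. The deposited log2 values were made by the authors with robust multichip averaging (RMA) in the Chipster software. RMA removes background, brings all arrays to one distribution and condenses the probes of a set to one value, and which arrays were normalized as one batch is not stated. Values ran from 2.22 to 14.47, with array medians of 5.6 to 5.66. The 64 array controls were left out of 45101 probe sets, and 45037 were tested with no other filter. Platform annotation named 34945 probe sets with 1 gene, 932 with several and left 9160 unlisted.

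Groups were taken from the sample labels. With limma 3.58.1 under R 4.3.3, the 8 arrays of each pair were fitted without covariates, two-sided, with Benjamini-Hochberg adjustment, after the kind of test the methods name. The interaction and the F test used all 16 arrays. The scripts were tested on simulated data. Python 3.11.15 with pandas 2.3.3 and matplotlib 3.10.9 served for summaries and plots. The precision of each value is limited by 4 arrays per group. The p-values set a group difference against the spread between arrays within groups. In the GEM group, replicates 3 and 4 may come from the same animal.

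The 28 genes, the lists and the markers were chosen with earlier results of these data known. Values per array are given for the 8 genes of the 28 with the smallest p of the F test, those with the smallest p in a pair of groups, and Srebf1, Srebf2, Insig1, Scap, Hmgcs1, Sqle, Fasn and Scd1. From each further list up to 3 genes with the smallest unadjusted p under 0.05 against control were named. Motifs were searched on both strands of RefSeq promoters of GRCm38.p6. Alternatives covered the arrays in the fit, dim probe sets, the variance prior, array weights, normalization, the representing probe set, a replicate block, the mean of GEM replicates 3 and 4, and the omission of each array in turn or of the 3 arrays with skin or muscle.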

Additional observations from a re-analysis of the deposited data

Results flagged for a closer look

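A group of 4 arrays was set apart here where its highest or lowest value stood off from the nearest one by more of the group's range than Dixon's critical value allows, which chance alone gives in about 5% of groups. Of the 112 groups of the 28 genes, 9 met this. Scd1 appeared in 2 groups, at 9.95 on GEM replicate 3, the array with the highest adipocyte markers, and at 8.30 on anti-CD40 Ab replicate 1, the array with the lowest sterol level. Scap appeared in 2, at 9.22 on anti-CD40 Ab replicate 3 and at 9.48 on GEM replicate 2, where the other 3 arrays all read 9.45. Cyp51 was low on GEM replicate 3, at 9.98. The values of Msmo1 on GEM/anti-CD40 Ab replicate 3 (10.84) and of Acaca on GEM replicate 4 (9.05) were high. Those of Dhcr7 on control replicate 1 (7.53) and of Acly on GEM/anti-CD40 Ab replicate 2 (10.83) were low. No cause was tested for any of them.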

How the results depend on the processing

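All 163 recomputed counts of called genes among the 28 were 0. The 452 recomputed values of single genes covered only those at an unadjusted p under 0.05 in the main fit. None of them changed sign or reached an adjusted p under 0.05. This says little on signs, as estimates near 0 were not recomputed, F statistics have no sign, and some alternatives leave the estimate unchanged. The sterol median took both signs for GEM against control (-0.06 to 0.03) and for GEM/anti-CD40 Ab against anti-CD40 Ab (-0.10 to 0.04). The fatty acid median did so for GEM against control (-0.04 to 0.05), anti-CD40 Ab against control (-0.04 to 0.02) and GEM against anti-CD40 Ab (-0.01 to 0.10), so no direction is read from these. Averaging all probe sets of a gene moved the medians for GEM/anti-CD40 Ab against control to -0.17 for sterol and -0.17 for fatty acid enzymes, and the cause was not tested. Leaving out 1 array gave -0.14 to -0.08 and -0.14 to -0.07. Scaling to the 75th percentile moved the median of all genes in this comparison to -0.06. Same-numbered arrays had deviations that correlated at -0.27 to 0.27. Differently numbered arrays were not set beside them, so a pairing or batch shared by number was not tested. With the replicate block, the 10 genes of GEM/anti-CD40 Ab against control at an unadjusted p under 0.05 became 7, with 0 called. For all probe sets, GEM/anti-CD40 Ab against control had 8 calls, which became 44 with all 16 arrays in one fit, 13 with a trended variance prior, 5 with probe sets averaged by gene, 2 without the 3 arrays with skin or muscle, and 0 with the replicate block. GEM against anti-CD40 Ab had 86, which became 1 with all 16 arrays, 147 with the replicate block and 31 with GEM replicates 3 and 4 averaged. The F test had 16, which became 26 with array weights, 9 with those 2 arrays averaged and 28 without the 3 arrays. Leaving out 1 array gave 0 to 11, 10 to 167 and 0 to 151 calls. GEM against control had 0 and reached 8, anti-CD40 Ab against control had 0 and reached 3, and GEM/anti-CD40 Ab against GEM had 0 and reached 1. With 4 arrays per group, intervals of single genes span changes of the size reported here.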
